A study of Mus musculus with 24 samples.

Results

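CD4 T cells of the colonic lamina propria that carried a reporter of Nmur1 were compared across genes with CD4 T cells of the same mice that did not. Neuromedin U (NMU) is a neuropeptide, and Nmur1 encodes 1 of its receptors. The libraries were chosen by their labelled population alone, and they were 16 of the 24 in the series, 8 labelled NMUR1+ and 8 labelled NMUR1-. Each of 8 mice gave 1 library of each population, so that every difference was taken within mice. All mice carried the Nmur1 iCre-eGFP allele. They drank 3% dextran sulfate sodium (DSS), an agent that damages the epithelium of the colon, for 5 days and plain water for the next 3 days. Mice 1 to 4 were injected with NMU and mice 5 to 8 with phosphate-buffered saline (PBS) every other day over that time. The sample labels name 4 mice per treatment, whereas the design text of the series counts 3. Cells had been gated as CD45+ CD3+ CD5+ CD4+ and divided by eGFP, so the populations report activity of the Nmur1 allele and not the receptor protein. The eGFP transcript was not analysed here.

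CD4 T helper cells are grouped by their master regulators and cytokines. Type 2 helper cells use the factor GATA3, respond to the epithelial alarmin IL-33 through its receptor ST2 (gene Il1rl1) and make IL-4, IL-5 and IL-13, while type 1 (Th1) cells use T-bet (Tbx21) and make interferon gamma. Regulatory T cells use FOXP3 and, in the colon, often also carry GATA3, ST2 and KLRG1 and make the epithelial growth factor amphiregulin (Areg). TCF-1 (Tcf7) is a factor of naive, memory and follicular helper T cells that declines in terminally differentiated effector cells. NMU is known mainly as a nerve-derived activator of group 2 innate lymphoid cells (ILC2), which carry NMUR1.

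When NMUR1+ cells were set against NMUR1- cells of the same mice, more members of the type 2 helper and regulatory T cell lists were higher than lower. In the naive, Th1, follicular helper and proliferation lists, more members were lower than higher. Gata3 was 3.17-fold, Il1rl1 4.73-fold and Klrg1 7.37-fold higher, and Tcf7 was 5.53-fold lower. Il5 and Il13 were detected at low levels in NMUR1+ libraries and close to 0 in NMUR1- libraries. The common T cell genes Cd3e and Cd4 did not pass the test. In the same comparison, transcripts of plasma cells and of macrophages were higher in NMUR1+ libraries of all 8 mice. Of 11 tested ILC2 markers, Gata3, Il1rl1 and Klrg1 included, 10 were higher too, against 11.4% of all genes tested, and the part of ILC2 RNA was not tested.

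The proximal promoters of 3 type 2 genes that the comparison turns on are shown, because Gata3 was itself higher in NMUR1+ cells. GATAA is 1 form of the letters that GATA3 binds, and its other forms, such as GATAG, were not searched. The 250 bases before the RefSeq start site (build GRCm38.p6) were searched for GATAA on both strands (reverse complement TTATC), and matches are in capitals. Sequences run 5′ to 3′ on the strand of the gene, and positions are counted back from the start site, with -1 as the last base before it. The Il13 window lies at chr11:53634703-53634952 on the minus strand, the Il1rl1 window at chr1:40429320-40429569 on the plus strand and the Il5 window at chr11:53720544-53720793 on the plus strand.
Il13: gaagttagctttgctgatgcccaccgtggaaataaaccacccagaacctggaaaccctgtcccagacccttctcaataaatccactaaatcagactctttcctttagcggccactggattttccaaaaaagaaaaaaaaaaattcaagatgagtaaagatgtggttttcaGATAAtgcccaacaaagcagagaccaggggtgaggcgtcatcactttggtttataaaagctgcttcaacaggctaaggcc
Il1rl1: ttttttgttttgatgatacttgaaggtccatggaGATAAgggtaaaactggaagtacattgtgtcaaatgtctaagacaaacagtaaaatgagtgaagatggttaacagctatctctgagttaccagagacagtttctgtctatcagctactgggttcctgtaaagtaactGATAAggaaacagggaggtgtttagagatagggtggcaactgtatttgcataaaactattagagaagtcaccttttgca
Il5: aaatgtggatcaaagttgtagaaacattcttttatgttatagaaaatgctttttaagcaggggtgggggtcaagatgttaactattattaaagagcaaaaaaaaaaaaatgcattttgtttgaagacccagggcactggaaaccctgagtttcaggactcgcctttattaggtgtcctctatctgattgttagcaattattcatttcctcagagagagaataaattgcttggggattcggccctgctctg
The Il13 window held 1 match, beginning at -80. The Il1rl1 window held 2 matches, at -216 and -79, and a window before another annotated Il1rl1 start held 1, at -103. GATAA was not found in the Il5 window, nor in those of the other higher genes searched, Il4 (both starts), Areg and Gata3. A window without GATAA may still hold another form of the GATA3 letters. Of the lower genes searched, Tcf7 held a match before 1 of 2 starts, at -63, and Lef1 before 1 of 4, at -194, while Klf2 held none. The matching windows of Il1rl1, Tcf7 and Lef1 lie within the annotated bounds of their genes, before internal starts, and not upstream of the whole gene. Of 32851 promoter windows of this length in the reference table, 22.6% held at least 1 match. The matches describe sequence only, and binding was not measured in these samples.

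Before the results, the labels were checked against Nmur1 itself. Its level, in CPM (counts relative to library size) scaled by the trimmed mean of M values (TMM), was 6.05, 45.1, 74.2, 37.6, 15.2, 56.0, 64.2 and 26.6 CPM in the NMUR1+ libraries of mice 1 to 8. In the NMUR1- libraries of the same mice it was 7.07, 1.82, 1.57, 7.72, 6.84, 3.38, 3.49 and 2.47 CPM. Nmur1 was thus higher in the NMUR1+ library of 7 mice, and in mouse 1 the library labelled NMUR1+ was below the library labelled NMUR1-. Because the reporter chose the cells, this difference (log2 difference 3.17, SE 0.68, edgeR adjusted p = 0.0117) checks the labels and is no finding. Without mouse 1 it was 3.58 (edgeR adjusted p = 0.00166). In NMU mice alone it was 3.09 and did not pass (edgeR adjusted p = 0.258). Results are given for all 8 mice, and where the absence of mouse 1 ended the call of a gene named with its test this is stated.

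Depth was similar in the populations, with 9759943 to 17379633 counts in NMUR1+ and 11273585 to 17854961 counts in NMUR1- libraries. Cd3e, a chain of the T cell receptor (TCR) complex, was at 845 ± 119.7 CPM in NMUR1+ and 907 ± 69.0 CPM in NMUR1- libraries (SD, n = 8; log2 difference -0.11, SE 0.065, edgeR adjusted p = 0.261), against 5.72 ± 4.06 CPM in the ILC2 libraries of these mice. Cd4 was at 615 ± 131 and 718 ± 84.9 CPM (log2 difference -0.25, SE 0.11, edgeR adjusted p = 0.133). Both defining genes of the labelled cell type were thus present in all 16 libraries. RNA of other cells was present too. Immunoglobulin genes and Jchain together took 0.784% to 30.4% of counts in NMUR1+ libraries (median 18.1%) and 0.146% to 5.58% in NMUR1- libraries (median 0.448%). The share was higher in the NMUR1+ library of all 8 mice, by 3.70 on the log2 scale (SD 1.86, exact sign-flip permutation test over 8 pairs, two-sided p = 0.0078, adjusted 0.0117). The summed level of 19 macrophage, monocyte and dendritic cell markers was 1366 to 4587 CPM against 465 to 1301 CPM, also higher in all 8 mice (log2 1.97, SD 0.67, same test and p). This p is the smallest that 8 pairs can give. The number of genes detected was lower in NMUR1+ libraries, with a mean difference of -1207 (SD 958, lower in 7 of 8 mice, exact sign-flip permutation p = 0.0156).

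**Figure D1:**
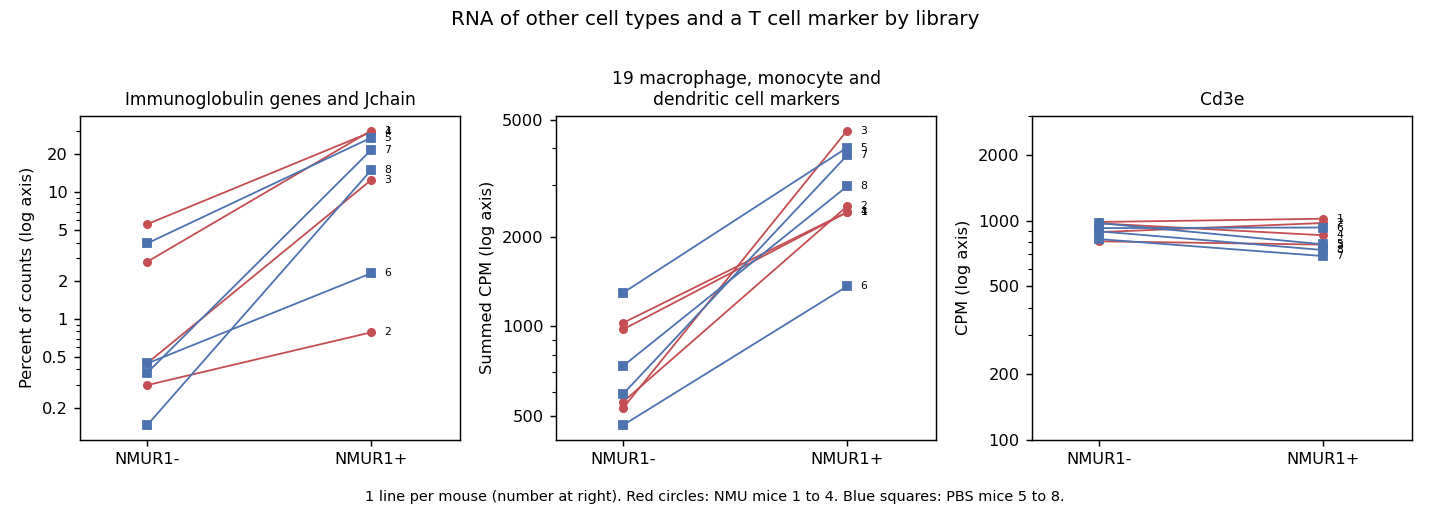
Share of counts in immunoglobulin genes and Jchain (percent), summed CPM of 19 myeloid markers and CPM of Cd3e in the 16 libraries, on log axes, with 1 line per mouse joining its NMUR1- and NMUR1+ library. The immunoglobulin and myeloid lines rise from NMUR1- to NMUR1+ in all 8 mice, whereas Cd3e rises in 3 and falls in 5.

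Across genes, edgeR's quasi-likelihood test with mouse as a block called 2604 of 12955 genes tested at an adjusted p under 0.05, which is 20.1%. Of these, 1481 genes were higher (11.4% of genes tested) and 1123 lower (8.67%) in NMUR1+ cells, and 1720 had the same direction in all 8 mice. At least 2-fold differences were found for 720 higher and 196 lower genes. Of 173 immunoglobulin genes tested, 63 were among the higher genes and 0 among the lower. The split was 56.9% higher among called genes, and 69.8% (1450 higher, 626 lower) when libraries were scaled by the summed counts of Cd3e, Cd3d, Cd3g and Cd4. Without mouse 1, 1336 genes were higher and 976 lower. In the mice with under 20% immunoglobulin counts in the NMUR1+ library (mice 2, 3, 6 and 8), 811 were higher and 537 lower. All 24 libraries in the fit gave 675 and 365, NMU mice alone 473 and, rounded, 1.8e+02, and PBS mice alone 572 and 221. Counts of list members below are to be read beside the counts and shares of all genes given here. In bulk samples, fewer cells of a type and less RNA per cell cannot be told apart, and this holds for every value below.

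**Figure D2:**
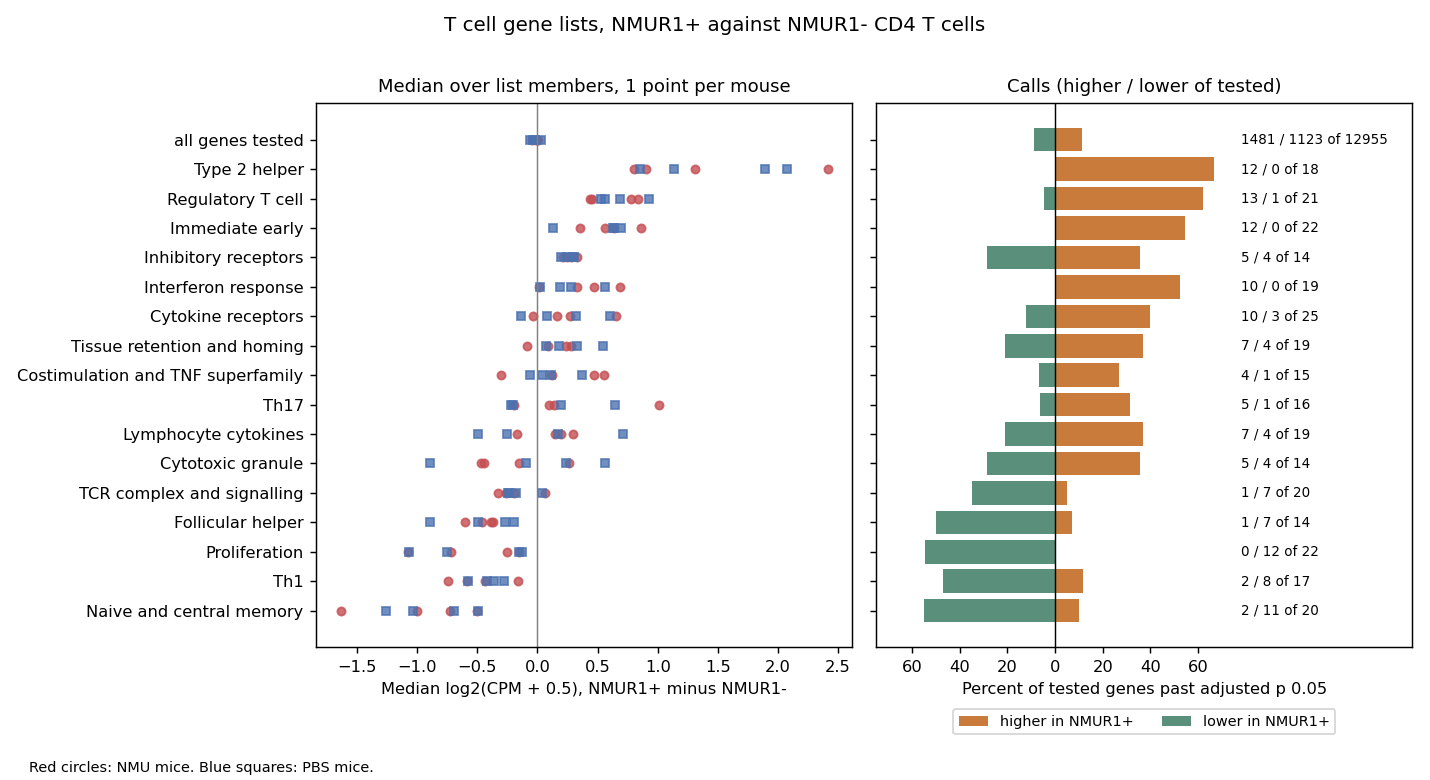
Left, the median log2 difference over the tested members of each T cell gene list, 1 point per mouse, beside all genes tested. Right, the percent of tested members past the edgeR threshold, higher to the right and lower to the left, with the counts written out: type 2 helper, immediate early and interferon response genes hold only higher calls, and proliferation genes only lower calls.

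Type 2 helper genes formed the list with the highest median difference among the 16 T cell lists. Of its 18 tested members 12 were higher and 0 lower, against 11.4% and 8.67% of all genes, and the median log2 difference was 1.44 against -0.06 over all genes. The list's median was above 0 in every mouse, from 0.80 to 2.42. Without mouse 1, 11 members were higher and 0 lower. In the 4 mice whose NMUR1+ library had under 20% immunoglobulin counts (mice 2, 3, 6 and 8), 9 were higher and 0 lower. These mice were chosen by that share alone, not by its difference between populations. Their shares were 0.784%, 12.4%, 2.29% and 14.8% in NMUR1+ and 0.301%, 0.450%, 0.446% and 0.146% in NMUR1- libraries. Their summed myeloid markers were at 1366 to 4587 CPM against 465 to 737 CPM. Here and in the lists below, this subset thus does not remove the difference in RNA of other cells.

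Gata3, the master regulator of type 2 cells (chromosome 2, 9857078 to 9887953 in GRCm38.p6, as for the positions below), had lowest, median and highest levels of 1083, 1506 and 1943 CPM in NMUR1+ libraries and of 285, 499.6 and 658 CPM in NMUR1- libraries. The groups did not overlap, and the log2 difference was 1.66 (SE 0.15, edgeR adjusted p = 2.60e-05). Il1rl1, the IL-33 receptor ST2 (chromosome 1, 40404864 to 40465418), was at 159.6, 255.6 and 417 CPM against 33.5, 57.2 and 81.1 CPM (log2 difference 2.24, SE 0.16, edgeR adjusted p = 7.62e-06). Here too every NMUR1+ library was above every NMUR1- library. Mouse 1, whose NMUR1+ library lacked the Nmur1 difference, had the highest Gata3 (1943 CPM) and Il1rl1 (417 CPM) of all NMUR1+ libraries. Mice 2 and 6, with the lowest immunoglobulin shares among NMUR1+ libraries (0.784% and 2.29%), had the lowest levels of both genes within that population. Gata3 of these mice was at 1083 and 1285 CPM against 436 and 617.5 CPM in their NMUR1- libraries. Their Il1rl1 was at 159.6 and 164 CPM against 44.6 and 60.2 CPM. Their summed myeloid markers were at 2545 and 1366 CPM against 557 and 465 CPM, and the part of other cells was not tested.

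Among the type 2 cytokines, Il5, a growth factor of eosinophils (chromosome 11, 53720794 to 53725103), was at 3.68, 14.6 and 78.7 CPM in NMUR1+ and at 0, 0.0728 and 0.726 CPM in NMUR1- libraries, a log2 difference of 7.03 (SE 0.61, edgeR adjusted p = 2.44e-05). The NMUR1- value rests on 26 counts in all 8 libraries, and 3 of them had none. The populations did not overlap. Il13, which drives mucus and smooth muscle responses (chromosome 11, 53631323 to 53634702), was at 0.141, 4.60 and 44.6 CPM against 0, 0.288 and 0.594 CPM (log2 difference 5.38, SE 0.78, edgeR adjusted p = 5.34e-04). It was higher in 7 of 8 mice, and the groups overlapped through the NMUR1+ library of mouse 1 at 0.141 CPM. Without mouse 1 the difference was 5.96 (edgeR adjusted p = 9.2e-05). Il4, the cytokine of class switching to IgE (chromosome 11, 53612460 to 53618665), was at 0.281, 1.03 and 9.45 CPM against 0, 0.175 and 0.392 CPM, with groups that overlapped (log2 difference 3.41, SE 1.07, edgeR adjusted p = 0.0408), and its call ended without mouse 1 (3.34, edgeR adjusted p = 0.0683) and also without mouse 3, 6, 7 or 8. Il4 was also not called in mice 2, 3, 6 and 8 taken alone. The type 2 cytokine Il9 and the prostaglandin receptor gene Ptgdr2 had too few counts to be tested.

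Among NMUR1+ libraries, Il5 and Il13 varied more between mice than Gata3 and Il1rl1 did. NMUR1+ libraries of mice 3 and 7 had the highest Il13 (44.6 and 36.1 CPM) and Il17rb (110.4 and 128 CPM), and mice 3, 4 and 7 the highest Il5 (78.7, 46.5 and 46.9 CPM). Il17rb, a chain of the receptor for the alarmin IL-25, was at 44.9 ± 47.6 CPM in NMUR1+ and 1.37 ± 0.860 CPM in NMUR1- libraries (log2 difference 4.52, SE 0.67, edgeR adjusted p = 0.00174), and the groups did not overlap. It was not called in NMU mice alone (edgeR adjusted p = 0.108) or in mice 2, 3, 6 and 8 alone (edgeR adjusted p = 0.0736). Areg was at 94.0, 131 and 192 CPM against 13.8, 26.1 and 88.1 CPM (log2 difference 1.98, SE 0.30, edgeR adjusted p = 0.00166). All 8 NMUR1+ libraries lay above all NMUR1- libraries, but the NMUR1- group was itself divided, with mice 1, 4 and 5 at 77.3, 88.1 and 81.2 CPM and the other 5 mice at 13.8 to 26.4 CPM. The immunoglobulin shares of those 3 NMUR1- libraries were 2.83%, 5.58% and 3.95%, the highest of that population, and the part of other cells in these values was not tested. Cd200r1, a receptor for an inhibitory ligand, was at 44.4 ± 10.1 CPM against 16.5 ± 5.75 CPM (log2 difference 1.48, SE 0.19, edgeR adjusted p = 1.76e-04). Ccr8 (log2 1.25), a chemokine receptor of type 2 and regulatory T cells, Nfil3 (0.89), a basic leucine zipper factor, Plac8 (0.58) and Lgmn (1.92), a lysosomal protease that macrophages also express, completed the higher members. Ccr8 and Plac8 were not called in mice 2, 3, 6 and 8 alone (edgeR adjusted p = 0.0945 and 0.118). Il4ra, Stat6, Maf, Ccr4, Pparg and Bhlhe41 did not pass, with edgeR adjusted p from 0.133 (Il4ra) to 0.937 (Ccr4).

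**Figure D3:**
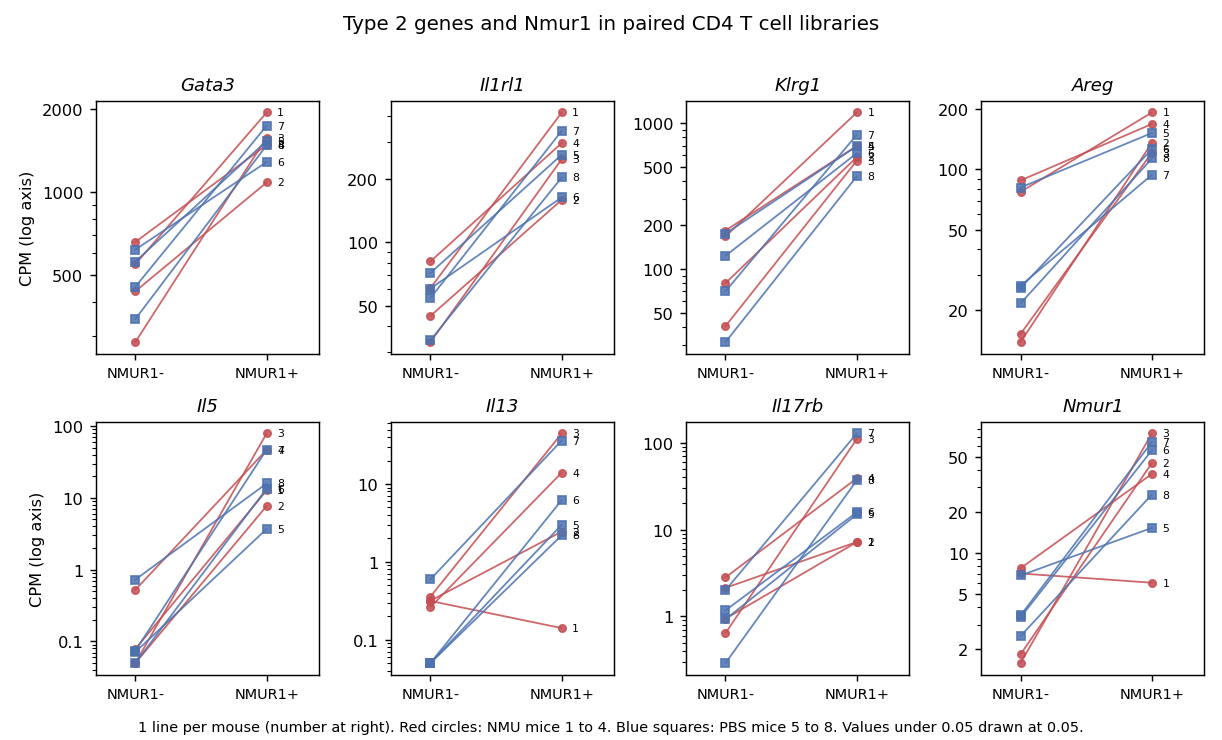
CPM on log axes of 7 type 2 genes and Nmur1 in the paired libraries, 1 line per mouse, with values under 0.05 drawn at 0.05. Every line rises from NMUR1- to NMUR1+ for Gata3, Il1rl1, Klrg1, Areg, Il5 and Il17rb, whereas the Il13 and Nmur1 lines of mouse 1 fall.

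Several of these genes also mark ILC2, so ILC2 markers were read beside them. Of 11 tested ILC2 markers, 10 were higher and 0 lower in NMUR1+ cells, against 11.4% and 8.67% of all genes. They include Nmur1, whose reporter chose the cells. Gata3, Il1rl1, Klrg1, Il17rb and Rora are among them too and are also counted in T cell lists, so this count is not separate from those. The summed level of the list, Nmur1 included, was 3307 to 5561 CPM against 1228 to 2235 CPM. On a scale common to all 24 libraries, the NMUR1+ mean was 70.3% of the ILC2 mean for Il1rl1, 61.0% for Klrg1, 27.2% for Gata3, 17.6% for Nmur1 and 35.4% for Areg. It was only 2.14% for Il5, 6.41% for Il13, 7.60% for Il17rb, 5.98% for the neuropeptide gene Calca and 1.57% for Arg1, an arginine-degrading enzyme of ILC2 and macrophages. The shares of the ILC2 level were thus unequal between genes. ILC2 markers, several of which CD4 T cells also express, moved with the population, and the part of ILC2 RNA in the result was not tested. Mast cell, basophil and eosinophil genes were nearly absent, with Mcpt2, Mcpt4, Mcpt8, Tpsb2, Fcer1a, Ms4a2 and Epx at 0 in all 16 libraries.

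Regulatory T cell genes had the next highest median difference of the 16 lists. Of 21 tested members 13 were higher and 1 lower, with a median log2 difference of 0.66 that was above 0 in every mouse (0.44 to 0.93). The counts were 13 and 1 without mouse 1, 13 and 0 in mice 2, 3, 6 and 8, and 5 and 1 with all 24 libraries in the fit. Over all genes, mice 2, 3, 6 and 8 gave 811 higher and 537 lower, and all 24 libraries 675 and 365. Foxp3, the master regulator of these cells, had lowest, median and highest levels of 152, 261 and 302 CPM in NMUR1+ and 61.1, 145 and 199 CPM in NMUR1- libraries. It was higher in the NMUR1+ library of all 8 mice, although the groups overlapped (log2 difference 0.85, SE 0.16, edgeR adjusted p = 0.00332). Klrg1, an inhibitory receptor of effector and tissue regulatory T cells, was at 432, 659 and 1184 CPM against 31.5, 101 and 183 CPM with no overlap (log2 difference 2.88, SE 0.26, edgeR adjusted p = 8.90e-05). Il2ra, the high-affinity chain of the IL-2 receptor, was at 718 ± 125.4 CPM against 457 ± 89.6 CPM (log2 difference 0.66, SE 0.11, edgeR adjusted p = 9.19e-04). Ctla4, a checkpoint receptor constitutive in regulatory T cells, differed less (1974 ± 391 against 1499 ± 187 CPM, log2 difference 0.38, SE 0.095, edgeR adjusted p = 0.0135).

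The anti-inflammatory cytokine gene Il10 was at 234, 342 and 703 CPM in NMUR1+ and 76.7, 150.2 and 284 CPM in NMUR1- libraries. It was higher in all 8 mice with overlapping groups (log2 difference 1.34, SE 0.36, edgeR adjusted p = 0.0354), and NMUR1+ libraries of mice 2 and 6 were the highest (674 and 703 CPM). The Il10 call ended without mouse 3, 6, 7 or 8. Itgae, the integrin chain CD103 that binds epithelial E-cadherin, was 2.43-fold higher (log2 difference 1.28, SE 0.10, edgeR adjusted p = 1.20e-05), and Entpd1, the ectonucleotidase CD39, 2.33-fold higher (log2 difference 1.22, SE 0.11, edgeR adjusted p = 2.10e-05). Genes of costimulatory receptors, Tnfrsf9 (4-1BB), Tnfrsf18 (GITR) and Tnfrsf4 (OX40), were higher in all 8 mice. Tnfrsf9 was at 1778 ± 481 CPM against 788 ± 211 CPM (log2 difference 1.17, SE 0.068, edgeR adjusted p = 2.97e-06), without overlap, while Tnfrsf18 and Tnfrsf4 had log2 differences of 0.68 (SE 0.078) and 0.58 (SE 0.071). Ikzf2, the Helios factor of thymus-derived regulatory T cells, was at 221 ± 76.6 CPM against 147 ± 57.7 CPM and did not pass (log2 difference 0.64, SE 0.21, edgeR adjusted p = 0.0619). Tgfb1 was the lower member (log2 difference -0.93, SE 0.19, edgeR adjusted p = 0.00455). Capg, Ebi3 and Entpd1 are also expressed by myeloid cells, whose markers were higher in NMUR1+ libraries, 19 of 19 tested. The part of myeloid RNA in these genes was not tested.

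Naive and central memory genes had the lowest median difference of the 16 lists. Of 20 tested members 11 were lower and 2 higher, the median log2 difference was -0.94, and it was below 0 in every mouse, from -1.64 to -0.50. Without mouse 1 the counts were 11 and 1, and in mice 2, 3, 6 and 8 they were 8 and 2. Tcf7 (chromosome 11, 52246527 to 52283383) had lowest, median and highest levels of 16.9, 33.0 and 69.3 CPM in NMUR1+ and 124.7, 197 and 258 CPM in NMUR1- libraries, with no overlap (log2 difference -2.47, SE 0.23, edgeR adjusted p = 6.33e-05). In mice 2 and 6, with little immunoglobulin RNA, Tcf7 was at 27.3 and 16.9 CPM in NMUR1+ and 258 and 202 CPM in NMUR1- libraries. Those were the mice with the largest differences in this gene's level, and the part of other cells in this was not tested. Lef1, the related HMG-box factor, was at 21.8, 27.9 and 47.5 CPM against 53.8, 88.7 and 131 CPM, again with no overlap (log2 difference -1.49, SE 0.14, edgeR adjusted p = 3.53e-05).

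Genes of lymph node entry and tissue exit followed the same direction. Ccr7, the chemokine receptor that guides T cells into lymph nodes, was at 359 ± 59.1 CPM against 712 ± 202 CPM (log2 difference -0.96, SE 0.14, edgeR adjusted p = 6.65e-04), with every NMUR1+ library below every NMUR1- library. S1pr1, the receptor by which lymphocytes leave tissue, was at 112 ± 44.9 CPM against 329 ± 124.05 CPM (log2 difference -1.56, SE 0.14, edgeR adjusted p = 2.10e-05). Its groups overlapped narrowly, with 54.0 to 196 CPM against 194 to 545 CPM, and it was lower in all 8 mice. Klf2, the factor that drives S1pr1, and Klf3, a relative of it, had log2 differences of -1.48 (SE 0.31, edgeR adjusted p = 0.0111) and -1.19 (SE 0.090, edgeR adjusted p = 8.44e-06). The higher members were Il7r, a survival receptor (log2 difference 0.44, SE 0.13, edgeR adjusted p = 0.0314), whose call ended without mouse 1 (0.43, edgeR adjusted p = 0.0639) and also without mouse 2, 6, 7 or 8, and Id3, an inhibitor of E proteins (log2 difference 1.21, SE 0.25, edgeR adjusted p = 0.00453). In the tissue retention and homing list, 7 of 19 tested members were higher and 4 lower. The lower ones were S1pr1, S1pr4, the integrin gene Itga1 (log2 difference -1.12, edgeR adjusted p = 0.0239) and the chemokine receptor gene Cxcr4 (-1.12, edgeR adjusted p = 0.0127). The Itga1 call ended without mouse 4 or 6, and neither Itga1 nor Cxcr4 was called in mice 2, 3, 6 and 8 alone. Cd69, which holds lymphocytes in tissue by opposing S1pr1, was at 841, 1264 and 1958 CPM against 502, 621 and 795 CPM with no overlap (log2 difference 1.03, SE 0.12, edgeR adjusted p = 1.29e-04). The gut homing receptors Ccr9 and Gpr15 were higher in all 8 mice (log2 0.94, SE 0.20, and 0.80, SE 0.11).

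**Figure D4:**
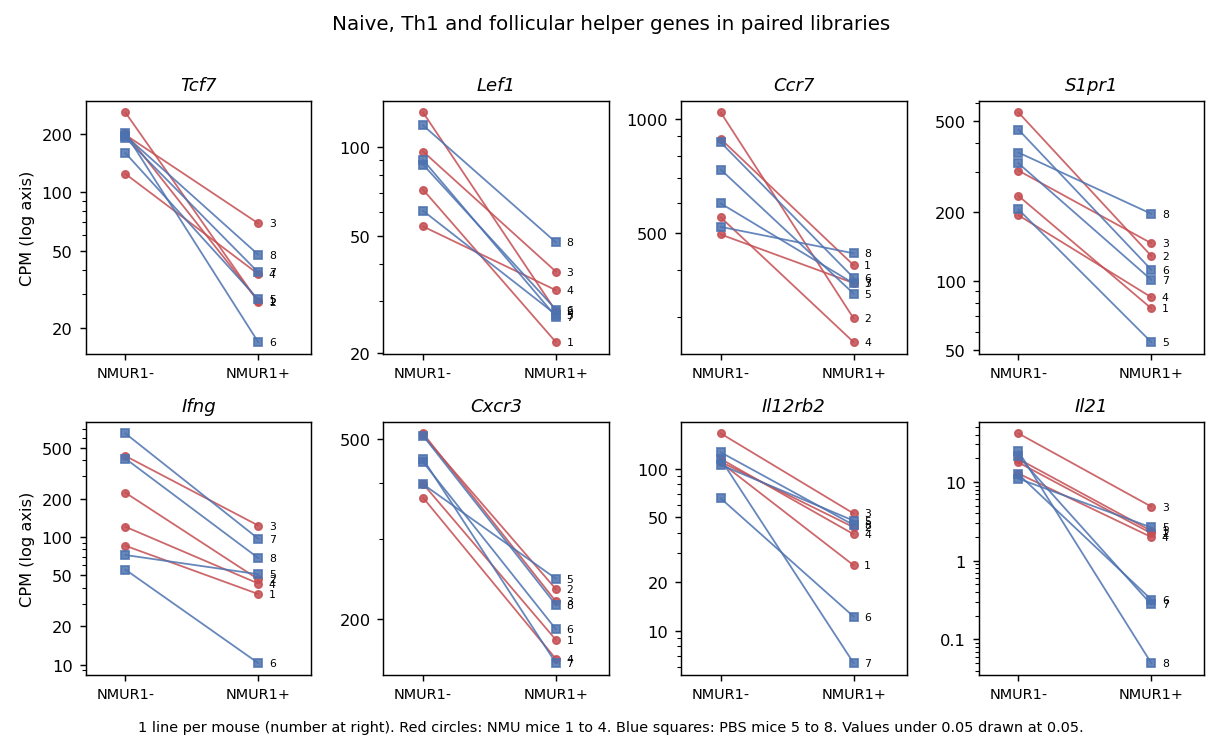
CPM on log axes of 4 naive and homing genes (Tcf7, Lef1, Ccr7, S1pr1), 3 Th1 genes (Ifng, Cxcr3, Il12rb2) and Il21 in the paired libraries, 1 line per mouse, with values under 0.05 drawn at 0.05. Every line falls from NMUR1- to NMUR1+ in all 8 mice for all 8 genes.

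Of 17 tested Th1 genes 8 were lower and 2 higher (median log2 difference -0.55, below 0 in every mouse), with the same counts without mouse 1, and 4 lower and 3 higher in mice 2, 3, 6 and 8. NMU mice alone gave 3 lower and 0 higher, PBS mice alone 1 lower and 1 higher, and all 24 libraries 3 lower and 0 higher. Over all genes, NMU mice alone gave 473 higher and, rounded, 1.8e+02 lower, PBS mice 572 and 221, and all 24 libraries 675 and 365. Cxcr3, the chemokine receptor of Th1 cells, was at 159, 202 and 245 CPM against 371, 448 and 515 CPM with no overlap (log2 difference -1.17, SE 0.081, edgeR adjusted p = 4.91e-06). Ifng had lowest, median and highest levels of 10.3, 48.9 and 123 CPM in NMUR1+ and 55.5, 171 and 648 CPM in NMUR1- libraries. It was lower in all 8 mice, with groups that overlapped because its level varied between mice in both populations (log2 difference -1.89, SE 0.25, edgeR adjusted p = 5.69e-04). Mice 3 and 7 had the highest Ifng in both NMUR1+ (123 and 97.02 CPM) and NMUR1- libraries (432 and 648 CPM). The regulator Tbx21 was at 45.4 ± 12.6 against 81.9 ± 17.3 CPM (log2 difference -0.87, SE 0.16, edgeR adjusted p = 0.00220), and Il12rb2, the signalling chain of the IL-12 receptor, at 34.0 ± 17.3 against 114 ± 27.3 CPM (log2 difference -1.92, SE 0.30, edgeR adjusted p = 0.00194). Tnf, which macrophages also make, was among the higher members (log2 difference 0.71, SE 0.23, edgeR adjusted p = 0.0455), and its call ended when any 1 of mice 2 to 8 was left out.

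Follicular helper genes, which serve help to B cells, were lower for 7 and higher for 1 of 14 tested members, with a median log2 difference of -0.50 that was below 0 in every mouse. Without mouse 1 the counts were 5 and 1, with the T cell scaling and in mice 2, 3, 6 and 8 they were 4 and 1, and with all 24 libraries 2 and 1. Lower calls over all genes were 626 with that scaling, 537 in those mice and 365 with all 24 libraries. Il21, their signature cytokine, was at 0, 2.11 and 4.87 CPM in NMUR1+ and 11.04, 18.7 and 41.4 CPM in NMUR1- libraries without overlap (log2 difference -3.73, SE 0.57, edgeR adjusted p = 9.42e-04). Sh2d1a, the adaptor SAP needed for contact with B cells, was 2.00-fold lower (log2 difference -0.999, SE 0.14, edgeR adjusted p = 4.48e-04), and Btla, an inhibitory receptor, 1.64-fold lower (log2 difference -0.71, SE 0.12, edgeR adjusted p = 0.00102). Cxcr5, the receptor for the follicle, differed by -0.62 on the log2 scale (SE 0.20, edgeR adjusted p = 0.0410), and its call ended without mouse 1 (-0.58, edgeR adjusted p = 0.0931), without any 1 of mice 2 to 6, and in mice 2, 3, 6 and 8 taken alone. The regulator Bcl6 did not pass (95.8 ± 16.8 against 122 ± 24.2 CPM, log2 difference -0.34, SE 0.16, edgeR adjusted p = 0.153), and Tox was the higher member (log2 difference 0.99, SE 0.22, edgeR adjusted p = 0.0118).

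The Th17 list had no common direction. Of its 16 tested members 5 were higher and 1 lower, and the median log2 difference was -0.0041, or 0.051 with the T cell scaling. Il17a, the cytokine that names these cells, did not pass and was at 54.8 ± 34.4 CPM against 46.6 ± 28.0 CPM (log2 difference 0.34, SE 0.31, edgeR adjusted p = 0.493). For Il17f the log2 difference was -0.0093 with a large SE (0.75, against a median of 0.19 over all genes tested). The higher members were Rora, Stat3, Tmem176a, Tmem176b and Ltb4r1, of which Tmem176b had the smallest p (log2 difference 1.11, SE 0.14, edgeR adjusted p = 1.85e-04). The Rora call ended without mouse 1 (0.22, edgeR adjusted p = 0.0526), 2 or 6, that of Stat3 without mouse 3 or 8 and that of Ltb4r1 without mouse 3 or 7. Tmem176a and Tmem176b are also expressed by myeloid cells, and the part of these cells was not tested.

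TCR complex and signalling genes differed little in size. Of 20 tested members 7 were lower and 1 higher (median log2 difference -0.21), and with the T cell scaling 3 were lower and 1 higher. Without mouse 1, 5 were lower and 0 higher, in mice 2, 3, 6 and 8 the counts were 1 and 0, and with all 24 libraries none was called. Lower calls of all genes numbered 537 in those mice and 365 with all 24 libraries. The kinases Lck (log2 difference -0.33, SE 0.063, edgeR adjusted p = 0.00277) and Zap70 (-0.32, SE 0.091) and the adaptor Lat (-0.33, SE 0.064) were lower by small amounts, and the Zap70 call ended without mouse 1 (-0.28, edgeR adjusted p = 0.0719) and also without mouse 3, 5, 7 or 8. Themis, a TCR signalling protein known for its part in thymic selection, was the exception, at 54.5 ± 22.4 CPM against 156 ± 40.5 CPM (log2 difference -1.59, SE 0.17, edgeR adjusted p = 6.42e-05). Cd2 was the higher member (log2 difference 0.24, SE 0.073, edgeR adjusted p = 0.0368), and its call ended without mouse 1 (0.25, edgeR adjusted p = 0.0637), without any 1 of the other mice but mouse 4, and in mice 2, 3, 6 and 8 taken alone.

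Cytotoxic granule genes moved both ways, with 5 of 14 tested members higher and 4 lower, against 11.4% and 8.67% of all genes. Gzmk, a granzyme of memory T cells, was at 11.2 ± 6.34 CPM against 56.3 ± 23.9 CPM (log2 difference -2.39, SE 0.45, edgeR adjusted p = 0.00528), and Fasl, the ligand of the death receptor Fas, at 67.7 ± 15.2 against 189 ± 50.9 CPM (log2 difference -1.46, SE 0.13, edgeR adjusted p = 2.10e-05). Both were lower in all 8 mice. Granzyme B (Gzmb) was higher, with 684, 1308 and 2579 CPM against 452, 680.4 and 979 CPM (log2 difference 0.96, SE 0.18, edgeR adjusted p = 0.00481). As for Il10, its highest NMUR1+ libraries were those of mice 2 and 6 (2579 and 2512 CPM). The chemokine genes Ccl3 and Ccl4 were higher by 2.15 (SE 0.27) and 1.75 (SE 0.33) on the log2 scale, and macrophages also make both.

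Inhibitory receptors were higher for 5 and lower for 4 of 14 tested members. Havcr2, the checkpoint receptor TIM-3 that myeloid cells also carry, was at 237 ± 76.0 against 123.5 ± 50.4 CPM (log2 difference 0.97, SE 0.23, edgeR adjusted p = 0.0144). Cd160 (3.57 ± 2.52 against 15.1 ± 5.27 CPM, log2 difference -2.25, SE 0.31, edgeR adjusted p = 3.62e-04) and Cd96 (log2 difference -0.69, SE 0.14, edgeR adjusted p = 0.00355) were lower. Cytokine receptors were higher for 10 and lower for 3 of 25 tested members. Il10ra, the ligand-binding chain of the IL-10 receptor, was at 37.9 ± 11.2 CPM against 10.05 ± 3.89 CPM without overlap (log2 difference 1.96, SE 0.25, edgeR adjusted p = 1.92e-04), and it too is expressed by macrophages. The TGF-beta receptor chains differed in opposite directions, Tgfbr1 by 0.73 (SE 0.13, edgeR adjusted p = 0.00189) and Tgfbr2 by -0.44 (SE 0.10, edgeR adjusted p = 0.00964), and Tgfbr2 did not pass with the T cell scaling (-0.38, edgeR adjusted p = 0.0863). Costimulatory and TNF superfamily genes were higher for 4 and lower for 1 of 15, and lymphocyte cytokines for 7 and 4 of 19. The shares over all genes, for each of these lists, were 11.4% higher and 8.67% lower.

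Of 22 tested proliferation genes 12 were lower and 0 higher in NMUR1+ cells, the median log2 difference was -0.52, and it was below 0 in every mouse, from -1.07 to -0.13. Without mouse 1, and also in mice 2, 3, 6 and 8, the counts were 12 and 0. With all 24 libraries 5 were lower, and 4 in NMU and 6 in PBS mice alone. Lower calls of all genes numbered 365 with all 24 libraries, and, rounded, 1.8e+02 in NMU and 221 in PBS mice alone. Mcm5, a subunit of the replicative helicase, had 90.3 ± 21.2 CPM in NMUR1+ and 192 ± 73.9 CPM in NMUR1- libraries (log2 difference -1.02, SE 0.15, edgeR adjusted p = 5.62e-04), with groups that overlapped (65.4 to 132 CPM against 122 to 308 CPM). Mcm2 and Mcm7 of the same complex differed by -0.89 (SE 0.17) and -0.88 (SE 0.10). Rrm2, a subunit of the enzyme that makes deoxynucleotides, was at 177 ± 53.6 against 350.0 ± 209 CPM (log2 difference -0.80, SE 0.17, edgeR adjusted p = 0.00661). Mki67, the common marker of cycling cells, was lower (log2 difference -0.72, SE 0.17, edgeR adjusted p = 0.0115), and Top2a, a mitotic topoisomerase, did not pass (log2 difference -0.51, SE 0.18, edgeR adjusted p = 0.0703).

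Immediate early genes, which respond within minutes to receptor signals and to tissue dissociation, were higher for 12 and lower for 0 of 22 tested members. The median log2 difference was 0.57, above 0 in every mouse (0.13 to 0.86), with 13 higher without mouse 1 and 11 higher in mice 2, 3, 6 and 8. Fos was at 446, 593 and 745 CPM against 109, 213 and 342 CPM with no overlap (log2 difference 1.51, SE 0.23, edgeR adjusted p = 0.00164). Ier3, a survival gene induced by NF-kappaB, was at 28.2 ± 12.4 against 5.06 ± 2.10 CPM (log2 difference 2.45, SE 0.25, edgeR adjusted p = 5.52e-05). Nr4a1, a nuclear receptor induced by TCR signals, was at 919 ± 209 against 549.5 ± 111 CPM (log2 difference 0.73, SE 0.069, edgeR adjusted p = 2.97e-05). Macrophages and plasma cells express many of these genes, and their part in the result was not tested. Interferon response genes were higher for 10 and lower for 0 of 19 (median log2 difference 0.29), with 8 higher without mouse 1 and 3 higher in mice 2, 3, 6 and 8. In PBS mice alone, 0 were called, where 572 genes in all were higher and 221 lower. Rsad2, an antiviral enzyme (log2 difference 0.80, SE 0.20, edgeR adjusted p = 0.0133), and Bst2, the membrane protein tetherin (log2 difference 0.65, SE 0.10, edgeR adjusted p = 5.49e-04), were examples.

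Over all genes, list members included, those with the largest differences that had one direction in all 8 mice and at least 10 CPM in the higher population were taken, with immunoglobulin genes, receptor segments and markers of other cells left out. This selection was chosen after values were seen. The 10 highest were Il5, Hp, Chil3, F10, Gpr141, Treml4, Slpi, Clec4e, Gpr84 and Slco2b1. Apart from Il5, they are genes known from macrophages, monocytes or neutrophils, or are not typical of T cells. Hp, which encodes haptoglobin, was at 37.4 ± 23.8 CPM in NMUR1+ and 2.87 ± 3.47 CPM in NMUR1- libraries (log2 difference 3.97, SE 0.35, edgeR adjusted p = 2.07e-05). Clec4e, the myeloid receptor Mincle, was at 137 ± 106 against 11.8 ± 7.59 CPM (log2 difference 3.38, SE 0.16, edgeR adjusted p = 7.19e-07), beside Lyz2, the lysozyme of macrophages, at 918 ± 351 against 231 ± 122 CPM (log2 difference 2.04, SE 0.27, edgeR adjusted p = 0.00102).

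The 10 lowest by the same selection were Il21, Aff3, Gzmk, Tcf7, Myb, Cd160, Esm1, Fgf13, St8sia1 and Il1rl2. Myb, a factor of lymphoid progenitors and memory T cells, was at 5.87, 9.30 and 14.7 CPM in NMUR1+ and 35.5, 47.1 and 67.0 CPM in NMUR1- libraries without overlap (log2 difference -2.33, SE 0.15, edgeR adjusted p = 3.22e-06). St8sia1, a ganglioside sialyltransferase, was at 7.26 ± 2.99 against 28.6 ± 5.46 CPM (log2 difference -2.08, SE 0.23, edgeR adjusted p = 7.92e-05). Fgf13, of the fibroblast growth factor homologous family, was at 4.38 ± 3.25 against 15.9 ± 3.61 CPM (log2 difference -2.14, SE 0.42, edgeR adjusted p = 0.00335). All 3 were lower in NMUR1+ libraries of every mouse. Esm1, a secreted proteoglycan, passed narrowly (log2 difference -2.23, SE 0.66, edgeR adjusted p = 0.0467). Its call ended without mouse 1 (-2.23, edgeR adjusted p = 0.093) and also without mouse 2, 3, 4, 5, 7 or 8. It ended too with no low-count filter, with all 24 libraries, with the T cell scaling, in PBS mice alone and in mice 2, 3, 6 and 8 alone. Of the other cell lists, B and plasma cell markers were higher for 16 of 18 tested, neutrophil markers for 2 of 5, fibroblast markers for 2 of 11 and epithelial markers for 1 of 11. For endothelial cells and for CD8 T and NK cells, 1 of 6 and 1 of 5 were lower. These counts stand beside 11.4% higher and 8.67% lower of all genes tested. No gamma-delta T cell marker of 7 and no enteric glia marker of 1 passed.

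A fit that takes RNA of other cells into account was also made, with the log2 CPM of Jchain, a plasma cell gene, and of Lyz2 as covariates. Jchain was at 38500.3 ± 32536 CPM in NMUR1+ and 2882 ± 3673 CPM in NMUR1- libraries. These genes took 90.3% of the variation within mice that separates the populations, and the median SE of a log2 difference rose from 0.19 to 0.549. In that fit edgeR called 1 gene higher and 2 lower (0.00772% and 0.0154%), and no member of the 16 T cell lists passed. The direction stayed the same for 72.7% of the 2604 genes called before. With 8 pairs, the population and the RNA of other cells cannot be told apart well by such a fit.

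The population difference was then compared between NMU and PBS mice. By edgeR's test of the interaction, 0 of 12955 genes were called (0%), with 324 at an unadjusted p under 0.05. DESeq2 called 4 (Trbv3, Igkv14-130, Igkv6-17 and Lyve1) and limma voom 3 (Ighv1-59, Igkv14-130 and Igkv6-17), mainly immunoglobulin segments. The smallest edgeR p-values belonged to Igkv6-17 (adjusted p = 0.209), Igkv14-130 (0.425), Trbv3, Igkv2-112 and Ighv1-52 (1.00 each). With 4 mice per treatment these data do not show that the difference was equal under both treatments. Taken alone, NMU mice gave 473 higher genes by edgeR, 72.3% of their calls, and PBS mice 572, 72.1% of theirs.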

How the data were processed

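The RNeasy Micro kit was used for RNA and the NEBNext Single Cell/Low Input chemistry for libraries, per the labels' protocols, and neither strand nor molecules are marked by it. Per the submitters' processing notes, STAR 2.5.3 aligned reads to mm10. How reads were counted, on which annotation and with what strand setting is not given in the sources used here. Values deposited by the authors are whole-number counts per gene, not normalized, for 27179 gene identifiers, of which 25275 (93%) matched a RefSeq symbol. The other 1904 held 0.969% of the T cell counts.

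Genes were kept by filterByExpr (minimum count 10) and scaled by TMM in edgeR 4.0.16 (R 4.3.3). edgeR's quasi-likelihood test with mouse as block and population as term gave log2 differences, NMUR1+ minus NMUR1-, with Benjamini-Hochberg adjustment over all 12955 genes at 0.05 and 7 residual degrees of freedom. The SE is the log2 difference divided by the root of F. Levels are TMM-scaled CPM, and differences per mouse use log2(CPM + 0.5). Single values per library were tested by exact sign-flip permutation over pairs, adjusted over 3 values. Alternatives were DESeq2 1.42.0, limma voom 3.58.1, other scalings and filters, subsets of mice and covariates (log2 of CPM + 1). The fitting script was tested on simulated data.

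The members, gene lists and alternatives were chosen with earlier results of these data known. Some genes are not reported here. Named genes were a fixed set and, in each list, up to 4 per direction with the largest difference among those past the threshold with one sign in all 8 mice and at least 10 CPM in the higher population. The rule over all genes also asked for a call with covariates, which no gene met, and that condition was dropped. Other list members are named because they complete a count, and were chosen after their values were seen.

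The populations of a mouse come from 1 animal, so the mouse number pairs them: deviations from the group means correlated by 0.03 (mouse 7) to 0.50 (mouse 4). No replicate libraries agreed within sampling noise (lowest chi-square per degree of freedom 16.55).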

Additional observations from a re-analysis of the deposited data

Results flagged for a closer look

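Of 198 groups of 8 libraries (each named gene in each population), 4 held a library that stood apart from the others by Dixon's test at 95%, fewer than the 1 in 20 that chance gives. Actn1, an actin cross-linker of the naive list, was at 24.3 CPM in the NMUR1+ library of mouse 8 against 7.6 to 12 CPM in the others. Rrm2 was at 299 CPM in the NMUR1+ library of mouse 3 against 132 to 190 CPM. Esm1 was at 0 CPM in the NMUR1+ library of mouse 6 against 3.74 to 19.6 CPM. The immunoglobulin segment Igkv14-130 was at 26.6 CPM in the NMUR1- library of mouse 5 against 0 to 2.07 CPM.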

How the results depend on the processing

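With mouse as block, 1481 genes were higher and 1123 lower. With no replicate block, that is without the pairing by mouse, the counts were 1306 and 820, and 83 of 90 called named genes were still called. Counts moved by more than 1.5 times in 6 settings: covariates (1 higher, 2 lower), all 24 libraries in the fit (675 and 365), NMU mice only (473 and, rounded, 1.8e+02), PBS mice only (572 and 221), mice 2, 3, 6 and 8 only (811 and 537), and, for lower genes, the T cell scaling chosen after seeing the data (626). The share of higher calls, 56.9% at first, was 69.8% with T cell scaling, 72.3% and 72.1% in NMU and PBS mice alone and 33.3% with covariates. Leaving out 1 mouse at a time gave 1210 to 1385 higher and 811 to 1056 lower genes. Interaction calls were 0 at first, 4 with DESeq2, 3 with limma voom, 3 with covariates, and 0 to 3 when 1 mouse was left out (1 without mouse 3, 3 without mouse 4, 1 without mouse 5). DESeq2 size factors, no low-count filter, DESeq2, voom and leaving out immunoglobulin genes kept both population counts within 1.5 times (1312 to 1915 higher, 1048 to 1581 lower). Of the 90 called named genes, edgeR kept 56 with all 24 libraries, 51 of 88 tested in NMU mice and 59 of 89 in PBS mice alone, 68 in mice 2, 3, 6 and 8, 87 with T cell scaling and 83 to 89 when 1 mouse was left out. Foxp3 was not called with all 24 libraries or within 1 treatment, nor Areg in NMU mice alone (adjusted p = 0.0905), nor Il10 in NMU mice alone, with all 24 libraries or with no low-count filter. Nmur1 and Il17rb were not called in NMU mice alone. With all 24 libraries, Itgae, Entpd1, Cxcr3, Themis and Tnfrsf4 were among those lost (edgeR adjusted p from 0.115 to 0.462). In mice 2, 3, 6 and 8 alone, Ccr7, Klf2, Tbx21, Gzmk, Gzmb, Bst2 and Rsad2 were among the genes lost (edgeR adjusted p from 0.0626 to 0.172).

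With covariates none of the 90 was called, and these log2 differences changed sign: Nmur1 -0.34, Cd4 0.32, Il4 -3.35, Lyz2 -2.2e-05, Jchain -0.0017, Tmem176a -0.33, Tmem176b -0.013, Tox -0.35, Id3 -0.81, Il16 0.026, Mcm5 0.14, Mcm2 0.25, Rrm2 0.60, Atf3 -0.18, Fos -0.29, Rsad2 -0.088 and Fgf13 0.41. Jchain and Lyz2 are themselves the covariates, and for the others the cause was not tested. Cd3e turned to 0.0099 in NMU mice alone. Depth limits Il4, Il5 and Il13, with 18, 26 and 25 counts in all NMUR1- libraries, and Il3, Il9, Csf2, Ascl2 and Ptgdr2, with too few to be tested.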

Other observations

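Within a population, some levels differed between groups of mice. NMUR1- libraries of mice 1, 4 and 5, which had the highest Areg of that population, also had its highest Klrg1 (167, 183 and 175 CPM against 31.5 to 123 CPM in the other 5) and Il10 (284, 249.98 and 208 CPM against 76.7 to 169.6 CPM). Their Nmur1 levels were 7.07, 7.72 and 6.84 CPM, the 3 highest among NMUR1- libraries. Mice 1 and 4 had received NMU and mouse 5 PBS. The neuropeptide gene Calca was at 38.9 and 58.5 CPM in the NMUR1+ libraries of mice 3 and 7 and at 5.54 to 17.8 CPM in those of the other 6, the same mice that had the highest Il13 and Il17rb. In NMUR1- libraries it was at 0.237 to 3.14 CPM. Epcam, an epithelial adhesion gene that some lymphocytes also express, was the called member of the epithelial list (27.0 ± 10.3 against 8.26 ± 4.66 CPM, log2 difference 1.74, SE 0.30, edgeR adjusted p = 0.00137), and 10 of the 11 tested members did not pass. The chemokine receptor gene Ccr10 was at 23.9 ± 19.3 CPM in NMUR1+ and 2.63 ± 2.98 CPM in NMUR1- libraries (log2 difference 3.08, SE 0.64, edgeR adjusted p = 0.00725), and plasma cells are known to carry this receptor too. The part of plasma cell RNA in it was not tested. Hlf, a circadian transcription factor gene on the ILC2 list, was at 32.7 ± 12.3 against 17.8 ± 12.4 CPM (log2 difference 1.07, SE 0.31, edgeR adjusted p = 0.0319). All of these were noticed after values were seen.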
